A study of Mus musculus with 42 samples.

Results

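The comparison described here set macrophages of aged C57BL/6 mice against macrophages of young C57BL/6 mice, both taken at zeitgeber time 8 (ZT8). Zeitgeber time counts hours from the daily cue that sets the animals' rhythm, conventionally lights on. The members are 6 of the 42 libraries of the study, 3 from young mice aged 2 to 3 months and 3 from aged mice of 18 to 20 months, chosen by the age and time in their labels. The study took macrophages of both ages at 7 times (ZT0, 4, 8, 12, 16, 20 and 24), with 3 libraries per age and time, to ask how ageing changes gene expression over the day. The labels name no treatment or genotype other than the strain, and they name neither the organ the macrophages came from nor how they were purified. They do not say whether the 3 libraries of a group came from separate animals, so the spread behind the p-values may be technical. That spread is pooled over all 42 libraries in 14 groups of age and time, not taken from the ZT8 libraries alone. The young and the aged libraries were deposited in separate tables, and a batch that followed age cannot be told apart from age.

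Nearly all cells keep time with a feedback loop of transcription factors. BMAL1, encoded by Arntl, pairs with CLOCK and switches on genes that carry an E-box in their promoters, among them the PER and CRY repressors that then shut the pair off, and the REV-ERB receptors that hold Arntl down. The same pair drives output factors such as DBP and TEF, which pass the rhythm on to other genes. Macrophages are phagocytes of innate immunity, and the loop is known to pace their inflammatory and phagocytic genes. Tissue macrophages are in part replaced by blood monocytes and in part maintain themselves by division, and with age many tissues gain immune cells and inflammatory transcripts.

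The 6 libraries held between 7897021 and 15587030 reads over genes, with 1.60% to 1.88% of reads from the mitochondrial genome in young and 2.06% to 2.27% in aged libraries. Levels are given as rescaled reads, which are whole reads divided by a size factor computed over all 42 libraries. Among libraries, aged replicate 1 lay the second farthest of 42 from its group mean over all genes, and young replicate 3 the tenth farthest. Young replicate 3 also carried 5037 rescaled reads of erythroid genes, against 6.66 to 56.4 in the other 5. Macrophage marker genes were abundant in every library, and their summed level was 285290 to 357405 in young and 207690 to 281750 in aged libraries, without overlap. Lyz2 alone made up most of that sum, with 218510 to 289615 rescaled reads in young and 159544 to 217842 in aged libraries. None of the 11 macrophage markers passed the test at ZT8, where 4.01% of all genes did. Mertk, Cd14 and Spi1 had log2 differences above 0 and the other markers below 0.

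At ZT8, 485 of 12086 genes tested differed between ages, which is 4.01% of genes, at a Benjamini-Hochberg adjusted p under 0.05 in limma. Of these, 239 (1.98% of genes tested) were higher and 246 (2.04%) were lower in aged macrophages. The change was at least 2-fold for 152 of the higher and 128 of the lower genes, and the median size among called genes was 2.21-fold. The 3 aged and 3 young values did not overlap for 467 of the 485 called genes. Over all genes tested the values did not overlap for 18.5%, with the aged values higher for 9.16% and lower for 9.35%. The median log2 difference of all genes was -0.00, which the shared rescaling sets near 0. Single libraries weighed on the count: without young replicate 2 it was 244, without young replicate 3 it was 148, without aged replicate 1 it was 211, and without aged replicate 2 it was 305. Without aged replicate 3 it was 635.

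**Figure D1:**
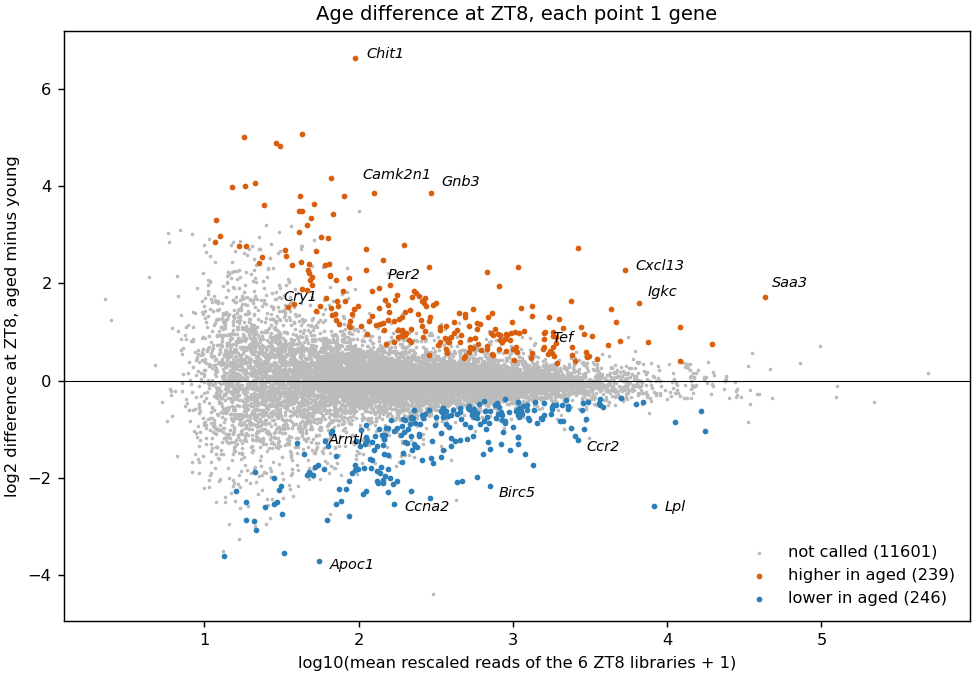
Log2 difference at ZT8 (aged minus young, vertical axis) against the log10 of the mean rescaled reads of the 6 libraries plus 1 (horizontal axis), each point 1 of 12086 genes tested. The 239 genes called higher in aged libraries are orange, the 246 called lower are blue, and the genes not called are grey. The largest differences lie at low and middle levels, while Lpl, Saa3 and Cxcl13 combine a high level with a large difference.

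Clock genes were among those that differed. Of 19 clock genes tested, 4 passed the test (21.05%, beside 4.01% of all genes): Per2, Cry1 and Tef were higher in aged macrophages and Arntl was lower. The values of 11 of the 19 did not overlap between ages (57.9%, beside 18.5% of all genes), and in 10 of the 11 the aged values were the higher ones. Without young replicate 3 the number called fell to 2, Per2 and Cry1.

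The promoters of 3 of the called genes are shown because they carry the sequences through which the loop acts. RefSeq's table of promoters on GRCm38.p6, the build that mm10 names, gives 300 bases per promoter, from 250 before to 50 after the annotated start, printed 5′ to 3′ on the gene's strand. Of the 19 clock genes, 15 had an entry, with 23 promoters. The E-box CACGTG, which reads the same on both strands, is in capitals in the promoters of Cry1 (chr10:85185005-85185304, minus strand) and of Tef (chr15:81811164-81811463, plus strand). In Arntl (chr7:113207261-113207560, plus strand) the capitals mark TAGGTCA, the core of the element that REV-ERB and ROR receptors bind. The lines are in that order.
Cry1: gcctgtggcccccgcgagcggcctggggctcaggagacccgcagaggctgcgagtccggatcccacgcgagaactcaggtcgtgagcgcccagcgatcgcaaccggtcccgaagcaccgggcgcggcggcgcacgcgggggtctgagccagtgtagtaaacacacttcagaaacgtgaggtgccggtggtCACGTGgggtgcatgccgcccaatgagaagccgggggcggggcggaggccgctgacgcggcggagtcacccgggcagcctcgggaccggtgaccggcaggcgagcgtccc
Tef: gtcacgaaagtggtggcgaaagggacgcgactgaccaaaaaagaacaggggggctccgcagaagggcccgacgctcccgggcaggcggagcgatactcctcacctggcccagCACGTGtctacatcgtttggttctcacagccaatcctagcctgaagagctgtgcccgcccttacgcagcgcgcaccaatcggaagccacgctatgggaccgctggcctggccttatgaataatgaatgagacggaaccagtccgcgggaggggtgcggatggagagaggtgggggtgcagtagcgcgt
Arntl: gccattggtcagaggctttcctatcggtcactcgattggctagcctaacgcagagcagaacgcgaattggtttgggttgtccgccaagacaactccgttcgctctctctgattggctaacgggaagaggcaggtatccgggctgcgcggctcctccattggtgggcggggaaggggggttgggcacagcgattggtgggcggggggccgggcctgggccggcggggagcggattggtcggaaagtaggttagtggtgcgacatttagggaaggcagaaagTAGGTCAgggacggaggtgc
The E-box stood in 6 of the 23 clock promoters (26.1%) and in 7.15% of all 32851 promoters of this length. TAGGTCA, searched on both strands, stood in 2 of the 23 (8.7%) and in 2.61% of all. In Cry1 the E-box begins 60 bases before the start, and in this Tef promoter 138 bases before it. The TAGGTCA of Arntl begins 30 bases after the start of this promoter, one of a pair of overlapping entries, and it lies beyond the end of the other. A match describes the letters and not a bound site.

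Among the repressors, Per2 stood out. Per2 (chr1:91415982-91459324) encodes a core repressor, PERIOD2, and carried 79.1, 81.6 and 25.1 rescaled reads in young replicates 1 to 3 and 201, 197 and 224 in aged replicates 1 to 3. Every aged value was more than the highest young value, and young replicate 3 was the lowest of the 6. The log2 difference was 1.90 ± 0.33 (standard error, SE, adjusted p = 0.00049), a fitted 3.73-fold rise. Cry1 (chr10:85131700-85185064), whose protein CRYPTOCHROME 1 is the strongest brake on BMAL1 and CLOCK, had 32.9, 27.0 and 39.3 rescaled reads in young and 130.04, 92.7 and 67.8 in aged libraries. The groups were apart and aged replicate 1 was the highest. Its difference was 1.49 ± 0.25 on the log2 scale (adjusted p = 0.00035), 2.81-fold.

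The other repressors pointed the same way in part, without passing the test. Per1 (0.71, adjusted p = 0.25), Per3 (0.66, adjusted p = 0.18) and Cry2 (0.89, adjusted p = 0.057) had log2 differences above 0, with no overlap between the ages. Ciart, an inhibitor of BMAL1 and CLOCK, had 18.7, 3.08 and 19.3 rescaled reads in young and 34.1, 33.5 and 35.5 in aged libraries (log2 difference 1.59, adjusted p = 0.38). Its 3 aged values were tight, and its young values were spread by replicate 2. The kinase genes Csnk1d (-0.10) and Csnk1e (-0.00), which mark PER proteins for decay, overlapped between ages.

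Of the activators, Arntl (chr7:113207465-113314126) was lower. It had 156, 159 and 220.2 rescaled reads in young and 63.0, 98.5 and 110.0 in aged libraries, without overlap. The log2 difference was -0.995 ± 0.23 (adjusted p = 0.008), a 1.99-fold lower level. Its partner Clock had 513, 478 and 656 against 579, 462 and 543 rescaled reads, which overlapped (log2 difference -0.05). The third activator gene of the list did not reach the level needed for testing. The receptor Nr1d1, REV-ERBα, had 208, 174 and 250.3 rescaled reads in young and 263, 139.6 and 241 in aged libraries, which overlapped (log2 difference -0.01 ± 0.77). The receptor genes Nr1d2 (0.47, adjusted p = 0.4, no overlap) and Rora (0.25, overlapping) were not called.

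Among the output factors, Tef (chr15:81802421-81826863), a PAR bZIP transcription factor, was higher. Its values were 1403, 1199 and 1058 rescaled reads in young and 1723, 1902 and 2124 in aged libraries, with every aged value above every young one. The log2 difference was 0.66 ± 0.16 (adjusted p = 0.012), 1.57-fold. Dbp, of the same family, had 166, 237 and 177 against 323, 349.9 and 449 rescaled reads, also apart, with a log2 difference of 0.95 ± 0.45 that did not pass (adjusted p = 0.27). Nfil3 (-0.14), which opposes these factors on shared sites, and Bhlhe40 (-0.02), a repressor of E-box genes, overlapped. Bhlhe41 (0.92, adjusted p = 0.062) did not overlap, and it also stands on the list of B cell markers described below. Leaving out 1 library ended the calls of Arntl without young replicate 3 or aged replicate 1 (adjusted p up to 0.099) and Tef without young replicate 3 (adjusted p up to 0.1). Arntl also lost its call on the 6 ZT8 libraries alone, in limma and in edgeR. When marker scores for lymphocytes and mast cells entered the model, 2 of the 4 clock genes stayed called, Per2 and Cry1.

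**Figure D2:**
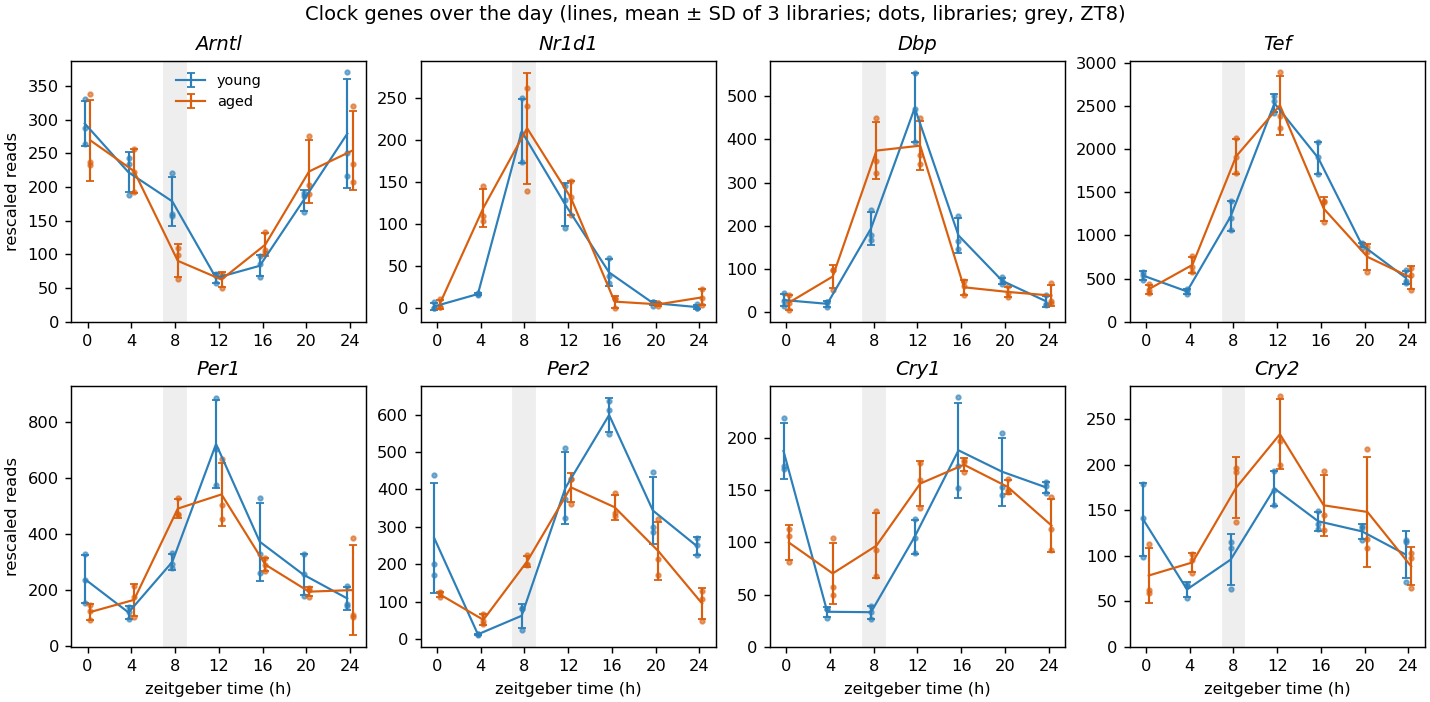
Rescaled reads (vertical axes) of 8 clock genes over zeitgeber time in hours (horizontal axes), with young libraries in blue and aged in orange. Lines give the mean ± SD of 3 libraries, dots the single libraries, and the grey band ZT8. At ZT8 the aged means of Per2, Cry1 and Tef lie above the young ones and that of Arntl lies below.

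The neighbouring times are given beside ZT8 as a description, with no test of a shift in time. Per2 rose in young macrophages from 12.3 ± 1.25 rescaled reads at ZT4 through 62.0 ± 31.9 at ZT8 to 404 ± 96.9 at ZT12 (mean ± SD, n = 3). Aged macrophages had 51.1 ± 14.8, 207 ± 14.9 and 405 ± 39.1 at these times. The means thus differed at ZT4 and ZT8 and were close at ZT12.

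Arntl ran the other way. Its young means were 222 ± 29.6, 179 ± 36.0 and 65.0 ± 6.94 rescaled reads at ZT4, ZT8 and ZT12. The aged means were 224 ± 32.4, 90.5 ± 24.5 and 62.7 ± 11.05. Both ages were near the same level 4 h before and 4 h after, and only at ZT8 of these 3 times was the aged mean the lower by more than 1 SD of either group. Tef had young means of 351, 1220.2 and 2529 and aged means of 659, 1916 and 2506. Nr1d1 was at 17.1 in young and 119.7 in aged cells at ZT4, and near 211 and 215 at ZT8.

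The direction of most differences called at ZT8 was shared with the other times. The mean age difference over the other 6 times was called for 2426 genes (20.1% of those tested), 1263 higher (10.5%) and 1163 lower (9.62%). The means of that contrast rest on 36 libraries, none of them a ZT8 library, and so it passes the test for smaller changes. Both tests take the spread of each gene from the same pooled fit, so their calls are not independent. Of the 485 genes called at ZT8, 469 had the same sign over the other times (96.7%, beside 66.8% of all genes tested). Both comparisons called 394 genes in the same direction, which is 81.2% of the ZT8 calls and 16.2% of the calls over the other times. None was called in opposite directions, and 16 had opposite signs. For 464 of the 485 the absolute log2 difference was larger at ZT8, the time at which they were selected. By single time the number of genes called was 96 (0.794%) at ZT0, 163 (1.35%) at ZT4, 251 (2.08%) at ZT12, 128 (1.06%) at ZT16, 200 (1.65%) at ZT20 and 253 (2.09%) at ZT24.

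A direct test asked which age differences at ZT8 departed from the mean difference over the other times. It called 2 of 12086 genes (0.0165%), Per2 and Cry1, with 740 genes at an unadjusted p under 0.05. For Per2 the age difference was 1.90 at ZT8 and -0.32 over the other times, a departure of 2.22 ± 0.35 on the log2 scale (adjusted p = 0.0025). For Cry1 it was 1.49 at ZT8 and 0.00 over the other times, a departure of 1.48 ± 0.27 (adjusted p = 0.015). At ZT4 the Per2 difference was 1.93 and the Cry1 difference 0.98, so both genes were on the aged-higher side at that time too. At ZT24 they were -1.49 and -0.41. Per2 lost this call without young replicate 3 (adjusted p = 0.0752), and Cry1 lost it without young replicate 1 or 2, without aged replicate 1 or 2, and without the ZT24 libraries (adjusted p up to 0.299 over all alternatives).

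Next in that ranking, without passing, were Lpl (departure -1.33 ± 0.30, adjusted p = 0.24), Arntl (-1.07 ± 0.25), Tef (0.73 ± 0.17) and Ide (0.66 ± 0.15), the gene of insulin-degrading enzyme. Ide is the reverse case: its log2 difference was -0.10 at ZT8, where the ages overlapped, and -0.76 over the other times. Abhd17b (0.78 at ZT8, 0.11 over the other times), a depalmitoylating enzyme, and Pcmtd1 (0.996 and 0.29) were called higher at ZT8. Prkcz, an atypical protein kinase C, had 17.8, 23.9 and 0 rescaled reads in young and 71.8, 82.2 and 44.4 in aged libraries at ZT8 (log2 difference 3.07 ± 0.64, adjusted p = 0.0037) and a difference of 0.21 over the other times. Cmtm3 (-0.97 and -0.15) and Lonrf3 (-2.88 and -0.38) were called lower at ZT8 (the latter not without young replicate 3), and Apex2 (1.58 and -0.11), a DNA repair nuclease, higher. Against the neighbouring times alone, limma called 0 genes (0% of those tested) versus ZT4 and 0 (0%) versus ZT12. At an unadjusted p under 0.05 there were 969 and 531 genes. edgeR called 1 and 0, and DESeq2 called 4 and 0.

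**Figure D3:**
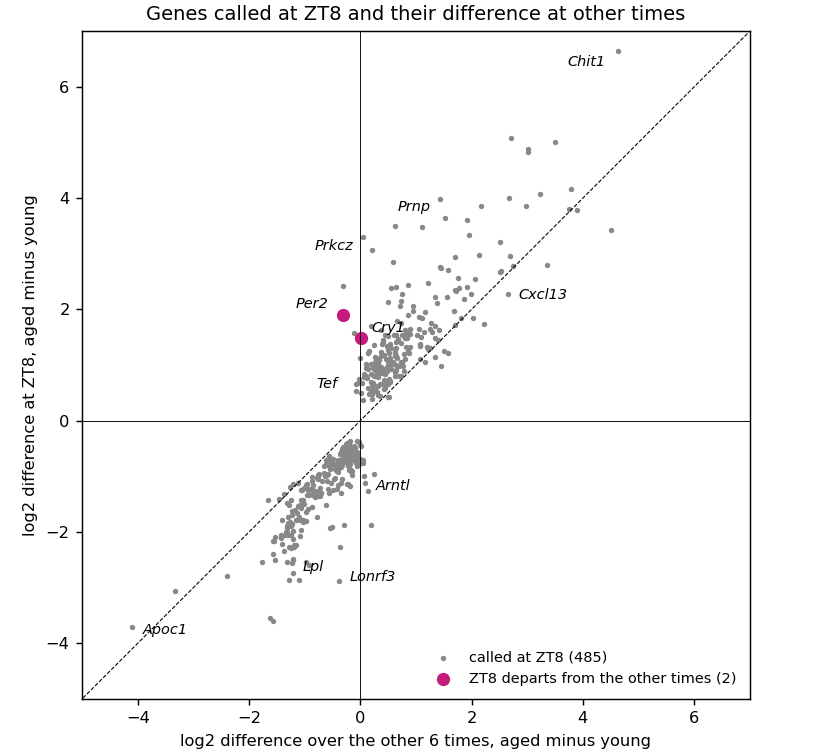
Log2 age difference at ZT8 (vertical axis) against the log2 age difference over the other 6 times (horizontal axis) for the 485 genes called at ZT8, with the dashed line marking equal differences. Per2 and Cry1, the 2 genes whose ZT8 difference departed from the other times, are in magenta. Most points lie in the lower left and upper right of the plot, and 16 have opposite signs.

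Genes of cell division were lower in aged macrophages. Of 23 mitosis genes tested, 15 were called lower and none higher (2.04% of all genes were lower), and 22 of the 23 did not overlap between ages (9.35% of all genes had lower aged values without overlap). The median log2 difference of the list was -1.78, beside -0.00 for all genes. Over the other times all 23 were called lower (9.62% of all genes), with a median of -1.27.

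The promoters of a pair of these genes, Cenpf (chr1:189688037-189688336, minus strand) and Aurka (chr2:172370521-172370820, minus strand), are shown because mitosis genes share a known pair of elements, CCAAT boxes and the CHR element TTTGAA. Both are in capitals.
Cenpf: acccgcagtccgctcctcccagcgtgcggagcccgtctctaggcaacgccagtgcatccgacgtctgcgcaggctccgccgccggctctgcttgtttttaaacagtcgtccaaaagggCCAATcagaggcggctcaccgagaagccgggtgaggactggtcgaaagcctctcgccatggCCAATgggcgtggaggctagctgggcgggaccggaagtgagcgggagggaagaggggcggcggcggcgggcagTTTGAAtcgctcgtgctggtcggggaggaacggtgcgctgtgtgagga
Aurka: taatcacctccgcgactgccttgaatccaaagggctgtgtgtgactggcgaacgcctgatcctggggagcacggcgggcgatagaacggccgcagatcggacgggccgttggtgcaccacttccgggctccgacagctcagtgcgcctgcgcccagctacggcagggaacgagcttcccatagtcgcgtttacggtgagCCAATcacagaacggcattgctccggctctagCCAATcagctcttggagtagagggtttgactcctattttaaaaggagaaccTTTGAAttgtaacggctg
Of the 23 mitosis genes, 19 had an entry, with 20 promoters. TTTGAA, on either strand, stood in 15 of the 20 (75%) and in 17.9% of all promoters. CCAAT stood in 18 of the 20 (90%) and in 37.4% of all. Each promoter printed holds 1 TTTGAA after the annotated start and 2 CCAAT boxes before it.

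Ccna2 (chr3:36564865-36572150), the gene of cyclin A2, had 316, 266 and 242 rescaled reads in young and 32.4, 22.9 and 129.96 in aged libraries. All aged values were lower, and aged replicate 3 was the highest of them. The log2 difference was -2.54 ± 0.57 (adjusted p = 0.0067), 5.82-fold lower. Birc5, the gene of survivin of the chromosomal passenger complex, had 1163, 1079.8 and 1116 against 162, 161 and 582 rescaled reads (-2.17 ± 0.52, adjusted p = 0.011). The kinetochore gene Cenpf had 477, 413 and 485 against 63.0, 39.2 and 249.9 (-2.41 ± 0.56, adjusted p = 0.0088). In both, aged replicate 3 again lay between the young libraries and the other aged ones. Aurka, the gene of the spindle kinase Aurora A, had 219, 198 and 213 against 49.4, 34.4 and 101 (-1.89 ± 0.44, adjusted p = 0.0082).

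The count of mitosis genes depended on single libraries. It was 10, 7 and 2 without young replicates 1, 2 and 3, and 1, 0 and 20 without aged replicates 1, 2 and 3. With the cell marker scores as covariates it was 0. With the highest adjusted p of a left-out library in brackets, the named members lost their calls as follows: Ccna2 without aged replicates 1 or 2 (0.067), Aurka without aged replicate 2 (0.072), Cenpf without young replicate 3 or aged replicates 1 or 2 (0.092) and Birc5 without young replicate 3 or aged replicates 1 or 2 (0.081).

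**Figure D4:**
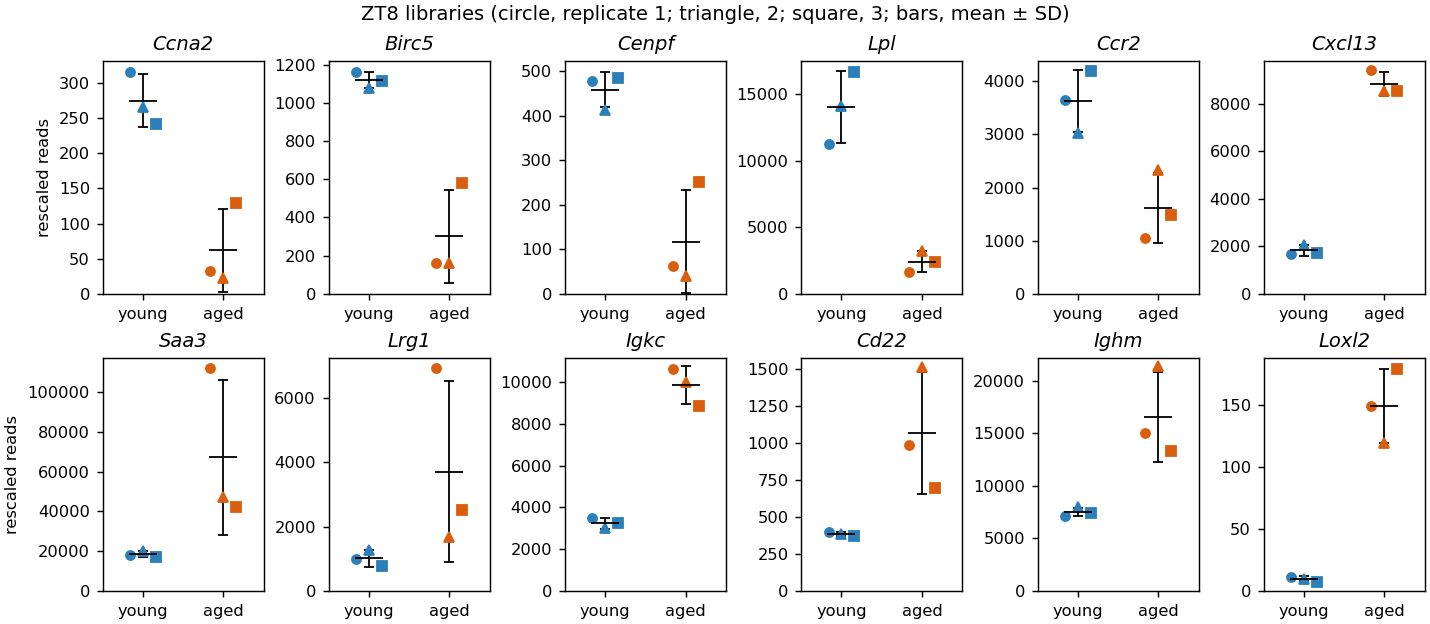
Rescaled reads (vertical axes, starting at 0) of 12 genes in the 3 young (blue) and 3 aged (orange) ZT8 libraries. Symbols give replicates 1 to 3 and bars the mean ± SD. The ages do not overlap in any panel, and aged replicate 3 is the highest aged library for Ccna2, Birc5 and Cenpf, while aged replicate 1 is far above the others for Saa3 and Lrg1.

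Of 30 DNA replication genes tested, 5 were called lower (2.04% of all genes) and none higher, and 18 did not overlap with lower aged values (9.35% of all genes). The median log2 difference was -0.94. Over the other times 29 of the 30 were called lower (9.62% of all genes). E2f1, the transcription factor of S phase entry, had 279, 350.4 and 363 rescaled reads in young and 239, 101 and 151 in aged libraries (-1.09 ± 0.28, adjusted p = 0.019). Mcm6 of the replicative helicase had 822, 869 and 784 against 428, 381 and 614 (-0.82 ± 0.22, adjusted p = 0.021). Mcm5 (-1.25) of the same helicase and the ligase gene Lig1 (-1.15) were lower as well. With the highest adjusted p of a left-out library in brackets, calls were lost for E2f1 without young replicates 2 or 3 or aged replicate 2 (0.17), Mcm5 without young replicates 1, 2 or 3 or aged replicates 1 or 2 (0.21), Mcm6 without young replicates 2 or 3 or aged replicates 1 or 2 (0.13) and Lig1 without young replicates 1 or 3 or aged replicates 1 or 2 (0.13). The number called was 0 to 13 when a library was left out: 3, 1 and 0 without young replicates 1, 2 and 3, and 1, 0 and 13 without aged replicates 1, 2 and 3. Of 17 senescence and p53 target genes, 2 were lower (2.04% of all genes), the stress-induced Sesn1 (-0.88 ± 0.23, adjusted p = 0.023) and the inhibitor of cyclin-dependent kinases Cdkn2c (-1.04 ± 0.30, adjusted p = 0.035). Leaving out 1 library ended both calls, Sesn1 without young replicates 2 or 3 or aged replicate 1 (adjusted p up to 0.33) and Cdkn2c without young replicates 1, 2 or 3 or aged replicates 1 or 2 (adjusted p up to 0.21).

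Markers of B cells were higher in aged libraries. Of 17 tested, 7 were called higher and none lower (1.98% of all genes were higher), and 14 did not overlap (9.16% of all genes). The median log2 difference was 0.997, beside 0.51 over the other times, where 14 were called higher (10.5% of all genes). Summed over the list, B cell markers had 20599 to 22472 rescaled reads in young and 40748 to 59009 in aged libraries. In bulk samples, a change in the number of cells of a type and a change in RNA per cell cannot be told apart.

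Igkc (chr6:70726435-70726966), the constant region of immunoglobulin kappa, had 3485, 2994 and 3234 rescaled reads in young and 10658, 10036 and 8856 in aged libraries. The groups were far apart and tight, with a log2 difference of 1.60 ± 0.24 (adjusted p = 7.7e-05). Ighm, the heavy chain of IgM, had 7149, 7959 and 7445 against 14985, 21427 and 13312 (1.11 ± 0.23, adjusted p = 0.0036), and Cd22, a B cell receptor inhibitor, 400.1, 383 and 374 against 989, 1515 and 699 (1.39 ± 0.26, adjusted p = 0.0013). Aged replicate 2 was the highest for both. Blk (1.31 ± 0.27, adjusted p = 0.0033), a kinase of the B cell receptor, was also called. The count was 4 to 8 when a library was left out, lowest without young replicate 3, and 0 with the marker scores as covariates, which these genes help to build. Il5ra, an interleukin 5 receptor subunit of eosinophils and some B cells, had 125, 82.4 and 103 against 285, 452 and 354 rescaled reads (1.80 ± 0.32, adjusted p = 0.00081). The eosinophil list, of which it is part, summed to 172 to 419 rescaled reads in young and 301 to 563 in aged libraries, which overlapped, with 2 of its 6 markers at 0 in all 6 libraries. Ccr3, the only other member tested, went the other way (-1.45, overlapping and not called). Over the other times its difference was -2.68.

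None of 16 T cell markers was called at ZT8 (4.01% of all genes), and 9 were called higher over the other times (10.5% of all genes). Their summed level was 569 to 589 rescaled reads in young and 517 to 968 in aged libraries. Mast cell markers (1577 to 2580 against 1682 to 3127) overlapped, and so did neutrophil markers (376 to 478 against 376 to 781), of which Ngp, Ly6g and Stfa2 were at 0. Mesothelial and fibroblast markers were low in young (15.4 to 19.3) and higher in aged libraries (63.1 to 255), with Krt19, Lum and Pdgfra at 0 in all 6. Of these 13 markers, 10 stayed under 10 rescaled reads in all 6, and Dcn, Krt18 and Krt8 made up most of the aged sums. Krt18 and Krt8 overlapped between ages and were highest in aged replicate 1 (97.1 and 79.4). The platelet list, carried by Pf4, was lower in aged libraries (20989 to 25264 against 7240 to 16658), with Gp9 and Gp1bb at 0. Pf4 is a chemokine that macrophages also make, and it had a log2 difference of -1.03 ± 0.28 (adjusted p = 0.025). Its call was lost in 8 alternatives, 4 of them without young replicate 2 or 3 or aged replicate 1 or 2.

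Adding marker scores for B cells, T cells and mast cells to the model, limma called 80 genes at ZT8, 67 of them among the 485. Of the 485, 98.8% kept their sign. Their median size went from 1.14 to 0.893 on the log2 scale and their median SE from 0.280 to 0.314. What part the cell mixture had in single genes was not tested beyond this fit.

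Of 14 genes of antigen presentation on MHC class II tested, 3 were higher (1.98% of all genes): H2-Oa (1.42 ± 0.31, adjusted p = 0.0055) and H2-DMb2 (0.99 ± 0.24, adjusted p = 0.011), which tune peptide loading, and H2-Eb2 (2.23 ± 0.59, adjusted p = 0.022). H2-Oa, which B cells express strongly, had 88.9, 84.7 and 77.9 rescaled reads in young and 178, 289 and 224 in aged libraries. The number called was 1 without young replicate 3 or aged replicate 2 and 4 without aged replicate 1, and 0 with the marker scores as covariates. None of 17 MHC class I genes was called at ZT8 (4.01% of all genes), and 11 were called higher over the other times (10.5% of all genes).

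Cxcl13 (chr5:95956951-95961068), the chemokine that draws B cells into tissues, had 1689, 2070.3 and 1714 rescaled reads in young and 9400.5, 8528 and 8516 in aged libraries. The 3 aged values were within a narrow range, well above the young ones. The log2 difference was 2.28 ± 0.27 (adjusted p = 1.5e-06), a fitted 4.85-fold rise, and it was called in every alternative. It was 2.65 over the other times. Of 26 chemokine and cytokine genes tested it was the only one called, a share near the 4.01% of all genes, and 11 of the 26 had log2 differences below 0.

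Acute phase genes had 3 of 7 members called higher (1.98% of all genes) and none lower, with a median log2 difference of 1.31. Saa3, a serum amyloid protein made by macrophages, had 18285, 19972 and 17250.1 rescaled reads in young and 112352, 47084 and 42107 in aged libraries (1.71 ± 0.46, adjusted p = 0.025). Lrg1, a leucine-rich secreted glycoprotein, had 995, 1286 and 764 against 6939, 1695 and 2506 (1.64 ± 0.34, adjusted p = 0.0036), and haptoglobin, Hp, 472, 351 and 288 against 1699, 637 and 682 (1.31 ± 0.38, adjusted p = 0.039). In all 3, aged replicate 1 was the highest library, and without it 0 of the list were called. Left-out young libraries 1, 2 and 3 gave 2, 1 and 1 called, without Saa3 in each case. All 7 were called higher over the other times (10.5% of all genes).

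Complement had 3 of 17 members higher (1.98% of all genes): C3 (0.99 ± 0.22, adjusted p = 0.0061), the central component, Cfb (1.22 ± 0.33, adjusted p = 0.028), of the alternative pathway, and C4b (0.79 ± 0.24, adjusted p = 0.046). C3 had 654, 628 and 614 rescaled reads in young and 1887, 846 and 1235 in aged libraries. Aged replicate 1 was again the highest, and without it 0 of the list were called. The median log2 difference of the list was 0.01. Cfb and C4b also lost their calls without young replicate 2 or young replicate 3. C4b lost it without young replicate 1 or aged replicate 3 as well (adjusted p up to 0.28).

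Interferon-stimulated genes were not called at ZT8. None of 37 type I interferon-stimulated genes passed in limma (4.01% of all genes were called), and their median log2 difference was -0.07. In each direction 3 did not overlap, near the shares of all genes (9.16% with aged higher, 9.35% with aged lower). Over the other times 18 of the 37 were called higher (10.5% of all genes), with a median of 0.36. The departure of ZT8 from the other times was below 0 for 30 of 37, and none of these departures passed. DESeq2 called 1 of the list higher at ZT8. The GTPases induced by interferon gamma showed 0 of 13 called at ZT8 (4.01% of all genes). Over the other times 8 of them were called higher (10.5% of all genes).

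Genes that mark macrophages derived from monocytes had log2 differences below 0 for 16 of 21, with a median of -0.45. Of the 21, 2 were called lower (2.04% of all genes) and 1 higher (1.98%), and 7 did not overlap with lower aged values (9.35%). Ccr2, the receptor that brings monocytes out of the blood, had 3657, 3022 and 4202 rescaled reads in young and 1047, 2338 and 1479.5 in aged libraries (-1.23 ± 0.28, adjusted p = 0.0078). Clec4b1, a C-type lectin with a close paralog, had -1.25 ± 0.33 (adjusted p = 0.023). S100a6, a calcium-binding protein, was higher (0.75 ± 0.22, adjusted p = 0.047). Each of the 3 lost its call without some single libraries, namely Ccr2 without young replicate 3 or aged replicate 1 (adjusted p up to 0.091), Clec4b1 without young replicates 1 or 3 or aged replicates 1 or 3 (adjusted p up to 0.16) and S100a6 without young replicates 2 or 3 or aged replicates 1, 2 or 3 (adjusted p up to 0.28).

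Genes for the uptake of dead cells had 3 of 22 members lower (2.04% of all genes) and 1 higher (1.98%). Stab1, a scavenger receptor for phosphatidylserine, had 270.3, 298 and 285 rescaled reads in young and 115, 117 and 77.8 in aged libraries (-1.48 ± 0.39, adjusted p = 0.022). The integrin Itgb3 (-1.17 ± 0.30, adjusted p = 0.018) and Dock1 (-0.62 ± 0.16, adjusted p = 0.02), which activates Rac during engulfment, were lower. Cd300lf, a receptor for lipids on dead cells, went the other way with 546, 242 and 298 against 2327, 1962 and 1147 rescaled reads (2.35 ± 0.35, adjusted p = 7.7e-05). The 3 lower calls were lost without young replicate 2, young replicate 3 or aged replicate 1, and those of Stab1 and Itgb3 also without aged replicate 3. Of 20 scavenger receptors and lectins, 2 were called (4.01% of all genes). Scarb2 (0.81 ± 0.15, adjusted p = 0.0012), a lysosomal membrane protein, was higher and Cd209a (-1.14 ± 0.30, adjusted p = 0.021) lower. In the signalling of Fc receptors, the kinase gene Syk (0.48) was higher and the adaptor Tyrobp (-0.45) was lower, among 19 tested, of which 3 were called (4.01% of all genes). With the highest adjusted p of a left-out library in brackets, calls ended for Cd209a without young replicates 2 or 3 or aged replicate 1 (0.14), Syk without young replicates 1, 2 or 3 or aged replicates 1 or 2 (0.27) and Tyrobp without young replicates 1, 2 or 3 or aged replicates 1 or 2 (0.25).

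Lpl (chr8:68880491-68907448), lipoprotein lipase, had the lowest adjusted p of all genes that fell among those named here. It had 11266, 14154 and 16698 rescaled reads in young and 1646, 3192 and 2434 in aged libraries. All young values were above all aged ones by several fold. The log2 difference was -2.57 ± 0.28 (adjusted p = 2.7e-07), 5.92-fold lower, and it was called in every alternative. The other times gave -1.24. Of 22 genes for lipid uptake, storage and PPAR targets it was the only one called, a share near that of all genes (4.01%).

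Of 16 genes of cholesterol efflux and LXR targets, 2 rose (1.98% of all genes) and 1 fell (2.04%). Scd1, the desaturase that makes oleate, had 775, 521 and 492 rescaled reads in young and 1416, 1969 and 1589 in aged libraries (1.49 ± 0.28, adjusted p = 0.0013), and its paralog Scd2 had a difference of 0.75 ± 0.22 (adjusted p = 0.046). Apoc1, an apolipoprotein, had 112, 103 and 88.7 in young and 5.88, 11.5 and 4.44 in aged libraries (-3.71 ± 0.81, adjusted p = 0.0051), the largest fall on the log2 scale among the genes named here. Lysosomal genes had 2 of 31 higher (1.98% of all genes), among them Cd63 (1.11 ± 0.26, adjusted p = 0.0088), and 1 lower (2.04%), Gusb (-0.61 ± 0.15, adjusted p = 0.015), while 25 of the 31 lay below 0. Fth1, ferritin heavy chain, was higher (0.42 ± 0.13, adjusted p = 0.049), as was Egln3, an oxygen-sensing prolyl hydroxylase induced by HIF, with 119, 168 and 108 against 435, 328 and 429.9 rescaled reads (1.60 ± 0.26, adjusted p = 0.00022). Fth1 was the only iron handling gene called. Among prostaglandin genes, the synthase gene Ptges (1.14 ± 0.32, adjusted p = 0.034) was higher and Hpgd (-2.50 ± 0.73, adjusted p = 0.04), which breaks prostaglandins down, was lower. Only called members of the prostaglandin list are named, which does not describe that list as a whole. Several of these calls ended when 1 library was left out (highest adjusted p of these fits in brackets), among them Scd2 without young replicates 2 or 3 or aged replicates 1 or 2 (0.36), Cd63 without young replicate 3 or aged replicates 1 or 2 (0.062), Gusb without young replicates 2 or 3 or aged replicate 2 (0.17), Fth1 without young replicates 1 or 3 or aged replicates 1, 2 or 3 (0.19), Ptges without young replicates 1 or 3 or aged replicate 1 (0.22) and Hpgd without young replicates 1, 2 or 3 or aged replicates 1 or 2 (0.33).

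The matrix list held Loxl2, a collagen cross-linking oxidase, with 11.6, 10.01 and 7.54 rescaled reads in young and 149, 119 and 179 in aged libraries (3.81 ± 0.56, adjusted p = 6.0e-05). In contrast, Tgfbi, a matrix protein induced by TGF-beta, had 3195, 3494 and 3625 against 1283, 1366 and 2196 (-1.13 ± 0.22, adjusted p = 0.0024), and the gelatinase gene Mmp9 554, 459.8 and 487 against 118, 306 and 129 (-1.57 ± 0.33, adjusted p = 0.0037). Here too only called members of the list are named. Of 23 immediate early genes, 1 was higher and 1 lower, close to the shares of all genes (1.98% and 2.04%). Jund (0.62 ± 0.19, adjusted p = 0.049) was higher, with overlapping values, and Klf6 (-0.46 ± 0.13, adjusted p = 0.039) was lower. Both calls were weak, as they ended for Jund without young replicates 2 or 3 or aged replicates 1 or 3 (0.31) and Klf6 without young replicates 1, 2 or 3 or aged replicate 1 (0.33), where the brackets hold the highest adjusted p of a left-out library.

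The largest rises were in genes almost without reads in young libraries. Chit1 (chr1:134111242-134151540), the chitinase of lipid-laden macrophages, had 2.67, 0 and 0 rescaled reads in young and 195, 58.3 and 309.9 in aged libraries. This is 3 reads against 672, a ratio of 222 with an exact 95% interval of 75.7 to 1080.4. That interval covers the counting error of reads only. Stc1, the hormone stanniocalcin, had 1 read against 252, a ratio of 250.03 with an exact 95% interval of 44.5 to 9914. Nnmt had 1 read against 123, a ratio of 122 with an exact 95% interval of 21.5 to 4859. Its aged values were 58.3, 4.78 and 21.1 rescaled reads, with a fitted log2 difference of 3.99 ± 1.19 (adjusted p = 0.047). Each of these ratios pools the reads of an age, so its interval leaves out the spread between libraries. Aged replicate 1 was the highest for Stc1 and Nnmt.

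Others of these rises had more reads. Gnb3, a subunit of heterotrimeric G proteins, had 24.9, 36.2 and 31.8 rescaled reads in young and 919, 190.2 and 551 in aged libraries (3.86 ± 0.51, adjusted p = 7.2e-06). Camk2n1, an inhibitor of CaM kinase II, had 20.5, 10.01 and 13.4 against 127, 339 and 235 (3.86 ± 0.47, adjusted p = 1.5e-06), and Adgrl2, an adhesion receptor, 3.56, 4.62 and 11.7 against 120.0, 101 and 151 (4.17 ± 0.81, adjusted p = 0.0022). Ages were apart in each. Dusp14 (4.83), a phosphatase of MAP kinases, Ncald (5.08), a neuronal calcium sensor, Rassf6 (4.00), Wipf3 (3.79) and Robo1 (3.61) rose too, from under 12 rescaled reads in every young library. Dcn (4.07), decorin of fibroblasts, was called beside the mesothelial and fibroblast markers, a list of which it is part. With the highest adjusted p of a left-out library in brackets, calls among the largest rises ended for Stc1 without young replicates 1 or 3 or aged replicate 1 (0.14), Nnmt without young replicates 1, 2 or 3 or aged replicates 1 or 3 (0.24), Dcn without young replicate 3 or aged replicate 1 (0.08), Rassf6 without young replicates 1 or 3 or aged replicate 1 (0.13), Wipf3 without young replicate 3 or aged replicates 1 or 2 (0.21) and Robo1 without young replicates 2 or 3 or aged replicates 1, 2 or 3 (0.12).

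Among the largest falls were Asz1, with 58.7, 213 and 185 rescaled reads in young and 20.0, 22.9 and 13.3 in aged libraries (-2.79 ± 0.47, adjusted p = 0.0004), and Wnt11 (-3.61 ± 1.04, adjusted p = 0.039), a Wnt ligand. Shank3 (-3.06 ± 0.88, adjusted p = 0.037), a synaptic scaffold, and Pianp (-2.54 ± 0.65, adjusted p = 0.017) fell from low levels. Over the other times the differences were -2.41 for Asz1, -1.58 for Wnt11, -3.33 for Shank3 and -1.78 for Pianp. All of these kept the direction seen at ZT8. Also among the 15 largest falls were Shcbp1 (-2.86), which acts at the midbody, Cip2a (-2.54), an inhibitor of protein phosphatase PP2A, Esco2 (-2.74), a cohesin acetyltransferase, Prr11 (-2.87) and Mastl (-2.59), the Greatwall kinase. Cip2a had 113, 106 and 144 rescaled reads in young and 16.5, 20.1 and 23.3 in aged libraries, and its 3 aged values were close together. Calls ended for Wnt11 without young replicates 1, 2 or 3 or aged replicates 1 or 3 (0.16), Shank3 without young replicates 2 or 3 or aged replicates 1 or 3 (0.24), Pianp without young replicate 3 or aged replicate 1 (0.2), Esco2 without young replicates 1, 2 or 3 or aged replicates 1 or 2 (0.2), Prr11 without young replicates 1, 2 or 3 or aged replicates 1 or 2 (0.2) and Mastl without young replicates 1, 2 or 3 or aged replicates 1 or 2 (0.36), with the highest adjusted p of a left-out library in brackets. Of the 20 alternatives run for each of these, Mastl lost its call in 15, Prr11 in 13 and Esco2 in 10.

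At ZT8 limma called 4.01% of all genes, so a short list near that share can hold no call. Many housekeeping and stress programs had no member called. These were 36 ribosomal protein genes, 35 nuclear genes of the respiratory chain, 31 proteasome genes, 25 chaperone and folding genes of the endoplasmic reticulum, 24 of sterol and fatty acid synthesis, 22 heat shock chaperones, 20 NRF2 targets and 18 genes that respond to glucocorticoids. The same held for 26 genes of Toll-like receptor and NF-kB signalling, 11 of the inflammasome and 22 of macrophage lineage. Their median log2 differences lay between -0.21 and 0.20. The respiratory chain genes were below 0 in 28 of 35 and the ribosomal protein genes above 0 in 29 of 36.

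**Figure D5:**
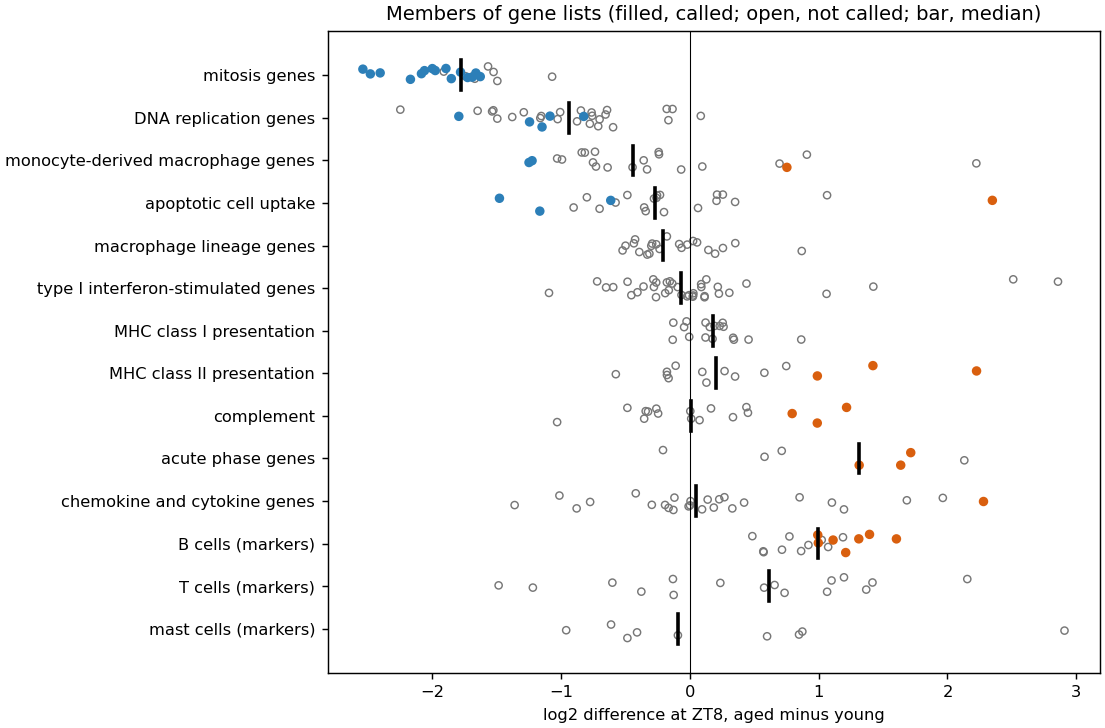
Log2 difference at ZT8 (horizontal axis, aged minus young) for the members of gene lists and cell marker lists (rows), with members called higher in orange, called lower in blue and not called open. Black bars mark the medians. Mitosis genes lie wholly below 0 with a median of -1.78, B cell markers wholly above 0 with a median of 0.997, and type I interferon-stimulated genes around 0.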

How the data were processed

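Per the labels' protocols, RNA extracted with Trizol and PureLink columns went into Lexogen QuantSeq libraries, which read transcripts from their 3′ ends. The submitters' processing notes list STAR, DESeq2 and mm10. How reads were counted, by strand and among similar genes, is not given in the sources used here, so values of close paralogs and antisense partners are uncertain. Per gene, the authors deposited a normalized signal (reads over a size factor), with 1 table per age. Dividing each library by its smallest value gave whole reads for 100.0% of values (tolerance 0.001). Each table held 47643 genes, of which 47224 matched a GENCODE symbol on GRCm38 and 22533 were at 0 throughout. The reads of all 42 libraries were rescaled by the median of ratios over 11229 genes above 0 in every library.

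Genes with a mean of at least 10 rescaled reads over 42 libraries (12086) were tested on log2(value + 1) with limma-trend (limma 3.58.1, R 4.3.3), in 1 model of 14 group means. Folds are on that scale and understate the change of low genes. Adjusted p is Benjamini-Hochberg over all genes tested, with a threshold of 0.05. Contrasts were aged minus young at ZT8, the mean of the other 6 times, and ZT8 minus that mean, ZT4 or ZT12. The named genes are the 15 largest rises and falls without overlap, all clock genes tested, up to 4 called genes of lowest p per list and the 12 lowest p against the other times, with some left unnamed or not reported here. As alternatives, the pseudocount, the filter and the scaling were changed, and further fits used edgeR 4.0.16 and DESeq2 1.42.0 on recovered reads, 6 libraries only, array weights, marker scores as covariates, the replicate block, no ZT24 and each library left out. The scripts were tested on simulated data. Chi-square per gene between ZT8 replicates was 13.5 to 62.7, above sampling noise, and none was taken as a copy. Reads here carry no molecular identifiers that the labels name, so copies of the same molecule may be counted as separate reads. The intervals cover the counting error of reads only, not that of molecules. The members and the lists were chosen with earlier results of these data known.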

Additional observations from a re-analysis of the deposited data

Results flagged for a closer look

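For Per2 and Cry1 the age difference at ZT8 differed from the mean age difference over the other 6 times in limma's test of the difference itself. The departure was 2.22 on the log2 scale for Per2 (adjusted p = 0.0025) and 1.48 for Cry1 (adjusted p = 0.015). All 3 aged values were above all 3 young values at ZT8 for both genes. The aged means of both were higher at ZT4 too, and limma called no gene against ZT4 or ZT12. Both calls depended on single libraries, as given above.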

How the results depend on the processing

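The precision is limited by 3 libraries per age, by genes with few reads, and by single libraries. The 485 genes called at ZT8 became 302 in limma on the 6 ZT8 libraries, 292 in edgeR on these libraries, 80 with the marker scores as covariates, and 148 to 635 when 1 library was left out. Under the other alternatives the count was within 1.5 times, and DESeq2 gave 660 with 235 adjusted p missing. The 2 departures from the other times became 7 with no filter on low values, and 1 with array weights, with the marker scores as covariates and without the ZT24 libraries. They were 1 to 11 when 1 library was left out. The 2426 genes called over the other times became 1242 with the covariates, and scaling to total reads split them into 1069 higher and 1398 lower. Left-out libraries gave 2395 to 2513. Against ZT4 the count of 0 became 1 with scaling to total reads, 1 in edgeR, 4 in DESeq2, and 0 to 8 when 1 library was left out. Against ZT12 it became 2 with no filter and was 0 to 0 with a library left out. Of 80 called genes that the naming rule gave and that are reported, 17 were called in every alternative and 63 lost the call in at least 1.

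Replicate numbers did not pair the samples, as same-numbered libraries of the 2 ages had correlated deviations of 0.0626, -0.0388 and 0.0615. With the replicate block 467 genes were called at ZT8, 453 of them among the 485, with 2 departures, 2430 genes over the other times, and 0 against ZT4 and ZT12.

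Of the clock genes that were not called, 6 of those named changed sign in some alternatives, all uncalled there too, and the cause was not tested. With the covariates the log2 difference was 0.389 for Bhlhe40, -0.202 for Bhlhe41, 0.0713 for Clock, 0.0759 for Csnk1e, 0.360 for Nfil3 and 1.03 for Nr1d1. Bhlhe41 is on the list of B cell markers that helps to build these scores. That fit therefore takes out part of its own level, and its sign there cannot be read as a result. With 1 library left out, the values ranged from -0.0535 to 0.0270 for Bhlhe40 (also 0.0198), -0.143 to 0.0864 for Clock (also 0.0443), -0.119 to 0.118 for Csnk1e (also 0.0356, 0.0255 and 0.000616), -0.634 to 0.241 for Nfil3, and -0.184 to 0.271 for Nr1d1 (also 0.120). Upper quartile, total and TMM scaling gave Csnk1e 0.0134, 0.00277 and 0.00675, and upper quartile scaling gave Nr1d1 0.00216. The edgeR fits of 14 groups and of 6 libraries, then DESeq2, gave Csnk1e 0.0147, 0.0125 and 0.0156, Nfil3 0.0776, 0.0688 and 0.0701, and Nr1d1 0.0283, 0.0286 and 0.0265. Array weights gave Nr1d1 0.0565.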

Other observations

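Some further genes called at ZT8 were picked out after their values were seen. Prdm1, the regulator of plasma cell fate, had 81.8, 103 and 95.4 rescaled reads in young and 508, 493 and 428 in aged libraries (log2 difference 2.34 ± 0.39, adjusted p = 0.00036). Mzb1, a chaperone of immunoglobulin assembly in B and plasma cells, had 2661, 2130.4 and 1979 against 6416, 7758 and 4841 (1.47 ± 0.27, adjusted p = 0.0012). Both were higher in every aged library. Fgl2 (1.95 ± 0.30, adjusted p = 0.00013), a secreted immunosuppressive protein, Itgb7 (1.28 ± 0.24, adjusted p = 0.0013), an integrin of gut homing, and Sdc4 (1.46 ± 0.25, adjusted p = 0.00051), a heparan sulfate proteoglycan, were higher as well. Prdm1 and Mzb1 rose beside the summed B cell markers, and the part of these cells in the difference was not tested for them.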
